A study of Mus musculus with 4 samples.

Results

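The 9 genes described here write, copy and remove DNA methylation: Dnmt1, Uhrf1, Dnmt3a, Dnmt3b, Dnmt3l, Tet1, Tet2, Tet3 and Tdg. They were taken by symbol, and all 9 were found among the 26130 genes of both deposited tables. The RNA came from mouse embryonic stem cells, in 4 libraries. E14 cells (strain 129P2/OlaHsd) and JB1 cells (strain JF1/B6) were each sequenced as wild type and as Zfp57-/-, with 1 library for each line and genotype. All 4 cultures grew without feeder cells on gelatin, in medium with serum and leukemia inhibitory factor. The labels give neither the deleted part of Zfp57 nor the number of knockout clones, so each knockout may stand for 1 clone, and clone and genotype cannot be told apart.

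Methyl groups are placed on cytosines that precede a guanine (CpG sites). DNMT3A and DNMT3B set new methylation, with DNMT3L as a partner that has no catalytic activity of its own. DNMT1 copies the pattern at replication, recruited to hemimethylated DNA by UHRF1. The TET proteins oxidize methylcytosine, and TDG excises the further oxidized bases for repair. ZFP57 binds methylated imprinting control regions and, through KAP1, brings methyltransferases and UHRF1 to them. The comparison of Zfp57-/- with wild type asked here whether the mRNA of these enzymes differed.

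Because these enzymes act on CpG sites, the CpG content of the sequences before their own start sites is shown for the genes with the widest differences and for Dnmt3l, whose starts are all below the median of mouse starts. RefSeq (build GRCm38.p6) lists 16 starts for the 9 genes. Over the 250 bases before each of 32851 mouse starts, the median was 6 CpG sites. Of the 16 starts of these genes, 12 were above it. Dnmt3a has 3 of the 16, a distal pair whose sequences overlap and an internal one, and Dnmt3l also has 3. The deposited values are per gene and do not separate the transcripts of different starts, so which start was used is not known. In the lines below CpG sites are in capitals, each strand is that of the gene, and each sequence runs 5′ to 3′.
Dnmt3a, first distal start, chr12:3806730-3806979, plus strand: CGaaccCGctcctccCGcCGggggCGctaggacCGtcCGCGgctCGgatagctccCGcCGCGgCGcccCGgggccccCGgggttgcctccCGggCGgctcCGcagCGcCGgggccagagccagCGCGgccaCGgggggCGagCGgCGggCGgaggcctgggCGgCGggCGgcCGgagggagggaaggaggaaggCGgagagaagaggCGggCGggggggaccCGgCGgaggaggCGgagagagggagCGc
Dnmt3a, internal start, chr12:3891494-3891743, plus strand: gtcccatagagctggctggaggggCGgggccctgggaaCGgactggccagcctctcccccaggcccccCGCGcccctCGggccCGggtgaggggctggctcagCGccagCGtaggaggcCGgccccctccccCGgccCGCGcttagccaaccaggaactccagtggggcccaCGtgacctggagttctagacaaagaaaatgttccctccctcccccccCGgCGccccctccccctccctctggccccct
Dnmt3b, chr2:153649199-153649448, plus strand: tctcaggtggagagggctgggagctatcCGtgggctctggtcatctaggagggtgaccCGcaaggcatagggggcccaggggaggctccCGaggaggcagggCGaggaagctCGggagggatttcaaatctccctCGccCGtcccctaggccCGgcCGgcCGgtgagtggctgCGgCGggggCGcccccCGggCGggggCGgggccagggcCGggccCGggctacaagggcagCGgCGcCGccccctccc
Tet2, chr3:133544391-133544640, minus strand: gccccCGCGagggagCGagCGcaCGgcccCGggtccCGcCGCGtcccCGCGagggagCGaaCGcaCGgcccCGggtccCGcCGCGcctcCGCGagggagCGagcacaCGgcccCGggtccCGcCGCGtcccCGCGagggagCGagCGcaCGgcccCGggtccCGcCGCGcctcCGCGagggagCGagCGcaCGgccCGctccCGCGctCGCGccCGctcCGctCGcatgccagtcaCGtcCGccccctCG
Dnmt3l, first of 3 listed starts, chr10:78042037-78042286, plus strand: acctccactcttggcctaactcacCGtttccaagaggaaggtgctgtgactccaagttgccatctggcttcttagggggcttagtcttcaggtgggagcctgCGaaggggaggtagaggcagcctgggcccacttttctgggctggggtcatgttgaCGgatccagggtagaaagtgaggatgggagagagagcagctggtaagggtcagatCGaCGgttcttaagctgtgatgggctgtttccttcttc

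The sequence before Tet2 held 51 CpG sites, and only 0.067% of all starts had as many. The first distal Dnmt3a sequence held 38 (1.88% of starts had as many), the other distal one, not printed, 40 (1.31%), and the internal one 15 (27.3%) and the Dnmt3b sequence 21 (16.3%). The 3 Dnmt3l starts held 5, 4 and 3. Starts of members not printed ranged as widely. Those of Uhrf1 held 10 and 30, those of Dnmt1 2, 7 and 26, and those of Tdg, Tet3 and Tet1 19, 17 and 15. These counts describe the sequences, and the libraries hold no methylation measurement.

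Levels are given as RPM, reads per 1000000 of the total by which each library was scaled. The 9 genes had between 481 and 49986 reads per library, so counting error was small. Library totals lay between 50478922 and 96996280 reads, of which 53.1% and 53.7% fell in listed genes in the E14 libraries and 68.6% and 68.9% in the JB1 libraries. Zfp57 was lower in both knockout libraries, 2.60-fold in E14 (135 against 51.8 RPM) and 18.5-fold in JB1 (796 against 42.9 RPM), and since the deleted part is not given, the remaining reads cannot be placed against it. All 10 embryonic stem cell markers had reads in every library, summing to between 2679 and 4638 RPM. The 9 fibroblast or feeder markers summed to between 1.60 and 13.6 RPM, with Dcn at 0 in all 4 libraries and Lum and Twist2 at 0 in both E14 libraries. Their sum was 7.62 RPM in wild-type JB1 and 13.6 RPM in its knockout (1.60 and 2.19 RPM in E14), mostly Thy1 and Col1a1, and its part in the JB1 results was not tested. Sums were 16.3 to 56.8 RPM for primitive endoderm, 21.4 to 56.1 for neuroectoderm and 9.29 to 35.2 for trophoblast markers.

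The widest differences were in the JB1 knockout library. Dnmt3a and Dnmt3b were more than 2-fold higher there and Uhrf1 more than 1.5-fold higher, while Tet2 was more than 2-fold lower and Tet3 more than 1.5-fold lower. In the E14 knockout library no member was 1.5-fold different in either direction. Folds are ratios of RPM, and their 95% intervals are exact conditional binomial intervals on recovered reads, which cover counting error only. With 1 library per group no test within a line was possible, and the spread between cultures is unknown.

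Counted over the 9 genes on the log2(RPM + 1) scale, 2 were at least 2-fold higher in the JB1 knockout (Dnmt3a, Dnmt3b) and 1 at least 2-fold lower (Tet2). Among all 13132 genes measured in JB1 (1 RPM or more in either of its libraries), 2.5% were higher by that much and 1.58% lower. At 1.5-fold, 3 members were higher (with Uhrf1) and 2 lower (with Tet3), against 9.91% and 6.52% of all genes. In E14, none passed 2-fold either way (0.953% and 0.269% of 12276 genes) and none passed 1.5-fold (3.81% and 2.27%). The members' median difference was 0.16 in E14 and 0.01 in JB1, against 0.02 and 0.01 over all genes. In E14, 7 were higher and 2 lower, and in JB1, 5 were higher and 4 lower. Of all measured genes, 53.5% were higher and 46.5% lower in E14, and 51.5% and 48.5% in JB1. The same shares stand beside every count of directions in the lists below. Of the 9 members, 5 were higher in both lines, 2 lower in both and 2 opposite. The sign of Dnmt1 in JB1 is not settled: scaled to the reads in listed genes or centred on the median, it was just below 0, which gave 4 higher and 5 lower in JB1 and 4 higher in both lines.

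**Figure D1:**
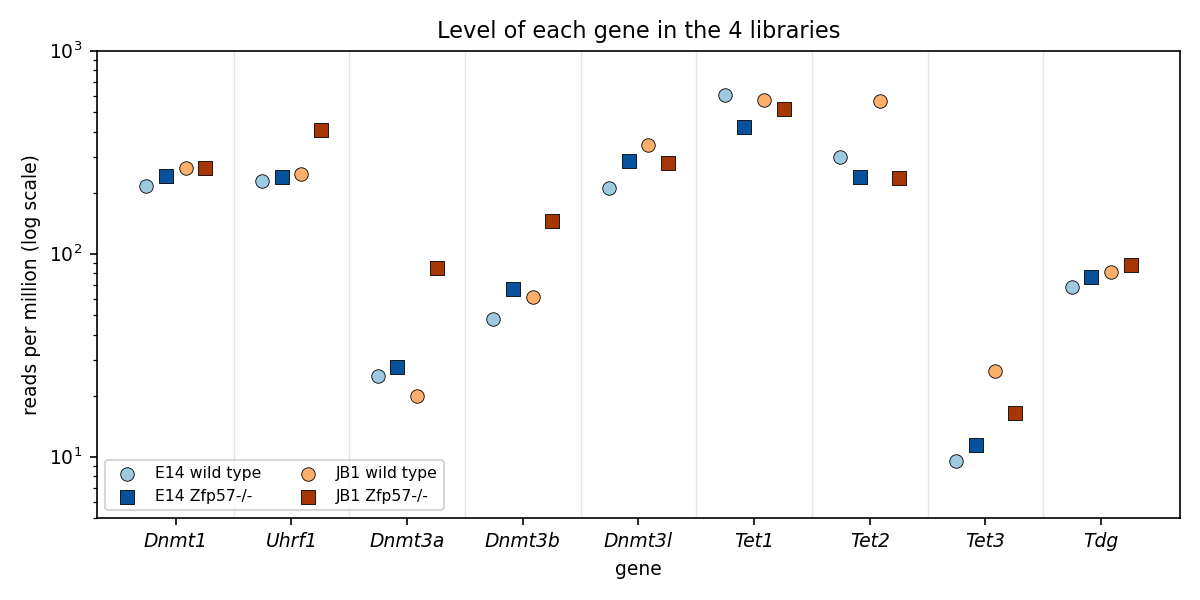
Level of each gene in RPM (log axis) in the 4 libraries, 1 point per library, circles for wild type and squares for Zfp57-/-. Dnmt3a reads 84.9 in the JB1 knockout against 19.9 to 27.6 elsewhere, and Tet2 reads 563 in JB1 wild type against 237 to 300 elsewhere.

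Dnmt3a, a de novo methyltransferase (chromosome 12, 3806007 to 3914443, plus strand, mm9), stood at 24.9 RPM in wild-type E14 and 27.6 RPM in its knockout. In JB1 it went from 19.9 RPM (wild type) to 84.9 RPM (knockout), and below too values written "from A to B" run from wild type to knockout. The JB1 knockout library stood apart from the others, and the lowest value was that of its own wild type. The knockout was 4.27-fold higher in JB1 (95% interval 4.03 to 4.52) and 1.11-fold higher in E14 (1.03 to 1.19). On the log2(RPM + 1) scale the JB1 difference was 2.04, and 19 of the 13132 genes measured in JB1, Dnmt3a included, were at least as high.

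Dnmt3b, the second de novo methyltransferase (chromosome 2, 153475186 to 153513466, plus strand), went from 47.7 to 67.2 RPM in E14 and from 61.4 to 145 RPM in JB1. Both knockout libraries were above both wild-type libraries. It was 1.41-fold higher in the E14 knockout (95% interval 1.34 to 1.48) and 2.37-fold higher in the JB1 knockout (2.29 to 2.45). No other member had a higher E14 ratio, and 9.53% of measured E14 genes had a difference of that size or more in either direction.

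Dnmt3l, the accessory partner of both (chromosome 10, 77504692 to 77526367, plus strand), did not follow them. It went from 211 to 286 RPM in E14 and from 342 to 280 RPM in JB1. The knockout was 1.35-fold higher in E14 (95% interval 1.32 to 1.39) and 1.22-fold lower in JB1 (1.20 to 1.24). In RPM, both knockout libraries lay between the wild-type libraries. Scaled to the reads in listed genes, the E14 knockout was instead the highest. On that scale the level went from 398 to 532 in E14 and from 498 to 406 in JB1. Aire, a regulator of self-antigen expression on the opposite strand, overlaps Dnmt3l by 1664 bases, and the strand setting of the counting is not given. Its level went from 2.10 to 5.16 RPM in E14 and from 12.2 to 23.8 RPM in JB1, far below Dnmt3l and higher in the knockout of both lines.

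To set the 3 genes of this family side by side, levels were divided by exon length in kilobases (union of exons in GENCODE M21 basic, GRCm38, which need not be the annotation the authors counted on). Dnmt3l made up 85.4% of the family's summed level in both E14 libraries and went from 88.8% to 71.3% in JB1. The share of Dnmt3b went from 11.9% to 12.4% in E14 and from 9.84% to 22.8% in JB1. That of Dnmt3a went from 2.71% to 2.23% in E14 and from 1.39% to 5.83% in JB1. The catalytic pair summed to 13.5 RPM per kilobase in wild-type E14 and 18.3 in its knockout, and to 16.2 and 42.1 in JB1. With Dnmt3l added, the JB1 sums were 144 and 147.

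Of the maintenance genes, Uhrf1 had the wider JB1 difference. Uhrf1, which reads hemimethylated CpGs (chromosome 17, 56442744 to 56462909, plus strand), went from 227 to 237 RPM in E14 and from 246 to 406 RPM in JB1. The other libraries lay close together and the JB1 knockout stood above them, 1.65-fold over its wild type (95% interval 1.62 to 1.68). In E14 the ratio was 1.05 (1.02 to 1.07).

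Dnmt1, the copying methyltransferase (chromosome 9, 20711650 to 20757317, minus strand), went from 216 to 243 RPM in E14 and from 264 to 265 RPM in JB1. Its JB1 ratio of 1.00 had a counting interval of 0.985 to 1.02, and its E14 ratio was 1.12 (1.09 to 1.15). Per kilobase, the level of Uhrf1 went from 180.3% to 168% of that of Dnmt1 in E14 and from 159.9% to 263% in JB1. Among 15 S phase genes, whose expression follows replication as that of Dnmt1 and Uhrf1 is known to do, 13 were higher in JB1 (median 0.21 on the log2(RPM + 1) scale) and 11 in E14 (median 0.14). Ccne1, a G1-S cyclin, was the widest, from 33.6 to 97.7 RPM in JB1 and from 43.0 to 49.9 RPM in E14. The part of the cell cycle in the Uhrf1 difference was not tested.

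**Figure D2:**
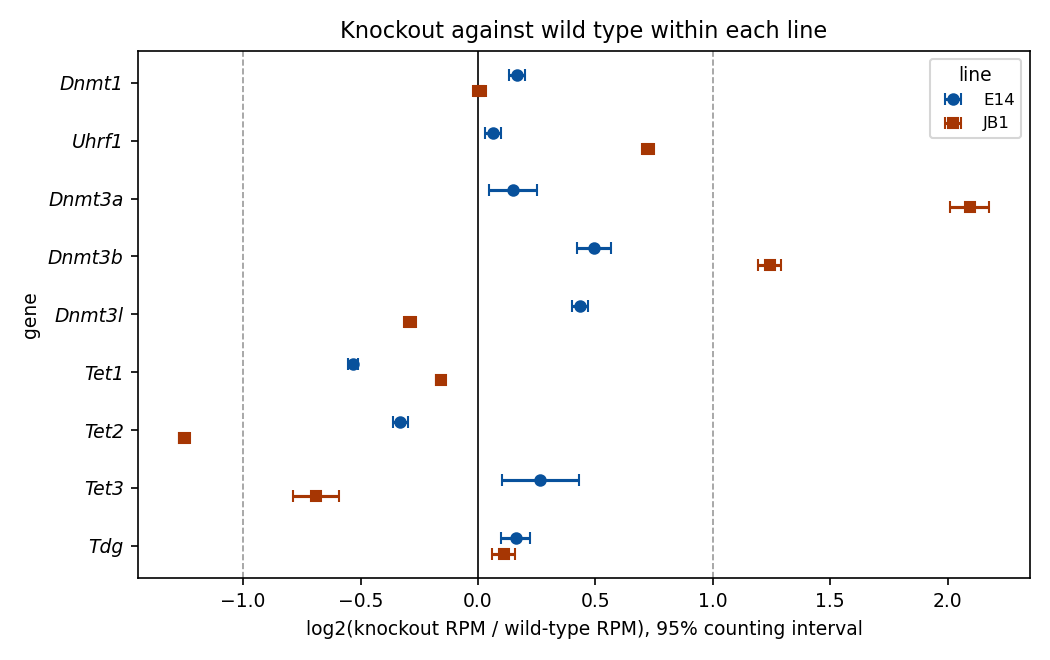
log2 of the knockout over the wild-type level of each gene, circles for E14 and squares for JB1, with 95% counting intervals (not culture-to-culture error) and dashed lines at 2-fold. In JB1 Dnmt3a and Dnmt3b lie above and Tet2 below the 2-fold lines, and every E14 value lies between them.

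The oxidizing enzymes were lower in the knockout libraries in all comparisons but one. Tet2 (chromosome 3, 133126643 to 133207354, minus strand) went from 300 to 239 RPM in E14 and from 563 to 237 RPM in JB1. Both knockout libraries were below both wild-type libraries, and JB1 wild type stood far above the rest. The knockout was 2.38-fold lower in JB1 (95% interval 2.34 to 2.42) and 1.26-fold lower in E14 (1.23 to 1.28). With a log2(RPM + 1) difference of −1.25, Tet2 was among the 101 lowest of 13132 genes in JB1.

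Tet1, the highest TET gene per kilobase in wild-type E14 (chromosome 10, 62267318 to 62361866, minus strand), went from 608 to 421 RPM in E14 and from 575 to 515 RPM in JB1. Both knockout libraries were again below both wild types. Here the wider difference was in E14, 1.45-fold lower (95% interval 1.42 to 1.47) against 1.12-fold in JB1 (1.10 to 1.13). In E14 it was among the 361 lowest of 12276 genes.

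Tet3, the enzyme known for oxidizing the paternal genome in the zygote (chromosome 6, 83312367 to 83391672, minus strand), had fewer reads than any other member in 3 of the 4 libraries, and more than Dnmt3a in JB1 wild type. It went from 9.53 to 11.5 RPM in E14 and from 26.4 to 16.4 RPM in JB1. Both JB1 libraries were above both E14 libraries. The knockout was 1.20-fold higher in E14 (95% interval 1.07 to 1.35) and 1.61-fold lower in JB1 (1.51 to 1.73), the second gene beside Dnmt3l with opposite directions.

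Per kilobase, the 3 TET genes summed to 75.8 in wild-type E14 and 56.2 in its knockout, and to 103 and 63.0 in JB1. Tet1 and Tet2 changed places between the JB1 libraries. Tet2 went from 59.2% to 40.9% of the sum there, and Tet1 from 38.7% to 56.9%. In E14, Tet1 went from 55.9% to 52.1% and Tet2 from 43.1% to 46.2%. Tet3 was between 1.07% and 2.21% in the 4 libraries. The level of Dnmt3a went from 3.28% to 33.3% of that of Tet2 in JB1, and from 7.70% to 10.7% in E14.

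Tdg, the glycosylase downstream of the TETs (chromosome 10, 82092573 to 82113544, plus strand), went from 68.7 to 76.7 RPM in E14 and from 81.6 to 88.0 RPM in JB1. All 4 libraries lay close together. The ratios were 1.12 (95% interval 1.07 to 1.17) and 1.08 (1.04 to 1.12).

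The knockout difference common to both lines was tested with limma over 12644 genes, with line and genotype as terms and 1 residual degree of freedom per gene. No member was called at an adjusted p (Benjamini-Hochberg) under 0.05. Over all genes 0% were called higher and 0% lower, and 1005 genes (7.95%) had an unadjusted p under 0.05. Dnmt3b had a mean difference of 0.86 ± 0.21 (SE) on the log2(RPM + 1) scale in limma (unadjusted p = 0.0058, adjusted p = 0.623) and was higher in 2 of 2 lines. Tet2 had −0.79 ± 0.25 (limma unadjusted p = 0.0172, adjusted p = 0.623) and was lower in 2 of 2 lines. Dnmt3a had 1.09 ± 0.41 (limma unadjusted p = 0.0352, adjusted p = 0.623) and was higher in 2 of 2 lines. The other six had limma adjusted p values from 0.646 to 0.938. With this design the p-values rest on how far the 2 lines differed for a gene and, more, on a variance estimated over all genes. That variance carried 5.28 prior degrees of freedom against the 1 residual one. A missed threshold does not show that levels were alike.

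How far the knockout ratio itself differed between the lines could not be tested, since nothing is left to estimate its spread. As a description, log2(knockout/wild type) in JB1 minus that in E14 was 1.94 for Dnmt3a (95% counting interval 1.81 to 2.08), 0.75 for Dnmt3b (0.66 to 0.83) and 0.66 for Uhrf1 (0.62 to 0.70). It was −0.92 for Tet2 (−0.96 to −0.88), −0.95 for Tet3 (−1.14 to −0.77), −0.72 for Dnmt3l (−0.77 to −0.68) and 0.37 for Tet1 (0.34 to 0.40). For Tdg it was −0.05 with an interval that holds 0 (−0.13 to 0.03), and for Dnmt1 −0.16 (−0.20 to −0.12).

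The wild-type libraries of the lines were not alike for the oxidizing enzymes. JB1 had 2.77 times the Tet3 level and 1.88 times the Tet2 level of E14, and 1.62 times the Dnmt3l level, in RPM. The tables were deposited separately and differ in the share of reads in listed genes. Scaled to the reads in listed genes, these ratios were 2.14, 1.45 and 1.25. Dnmt3a was 1.25 times higher in E14 in RPM and 1.62 times on the other scale. For Dnmt1, Uhrf1, Dnmt3b and Tdg, JB1 was 1.22, 1.08, 1.29 and 1.19 times E14 in RPM and 0.945, 0.838, 0.997 and 0.920 times on the other scale, so no direction is given. Tet1 was lower in JB1 on both scales (0.945 and 0.732 times E14). Between the knockout libraries the Tet2 levels were 0.991 times in RPM (JB1 over E14) and 0.772 times on the other scale.

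Ordered by level per kilobase within a library, Dnmt3l was highest and Uhrf1 second in E14 wild type (79.1 and 61.9) and in JB1 wild type (128 and 67.1), and Uhrf1 was first in the JB1 knockout (111, with Dnmt3l at 105). Tet1, Dnmt1 and Tet2 followed in E14 wild type at 42.3, 34.4 and 32.6. In JB1 wild type the order was Tet2 (61.2), Dnmt1 (41.9) and Tet1 (40.0). Tdg and Dnmt3b followed in both wild types. The lowest places were those of Dnmt3a (2.51) and Tet3 (0.812) in E14 and, in the reverse order, of Tet3 (2.25) and Dnmt3a (2.01) in JB1. Without replicates, neighbours in these orders cannot be separated.

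Each member was set beside the measured genes within 5 Mb on either side. Dnmt3a was the highest of its window in JB1, where 29 neighbours had a median of −0.08. Tet2 was the lowest of its window in JB1 (40 neighbours, median 0.13), and Tet3 was the lowest of its own (76 neighbours, median 0.02). Tet1 was the lowest of its window in E14 (56 neighbours, median 0.09). Uhrf1 ranked 3 from the top in JB1 (54 neighbours, median 0.01), and Dnmt3b ranked 5 from the top in JB1 (131 neighbours, median 0.06) and 10 in E14 (115 neighbours, median 0.01). The median over chromosome 6, which carries Tet3, was −0.28 in E14. Its E14 difference of 0.24 was 0.45 above the median of its 67 neighbours and ranked 3 from the top.

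**Figure D3:**
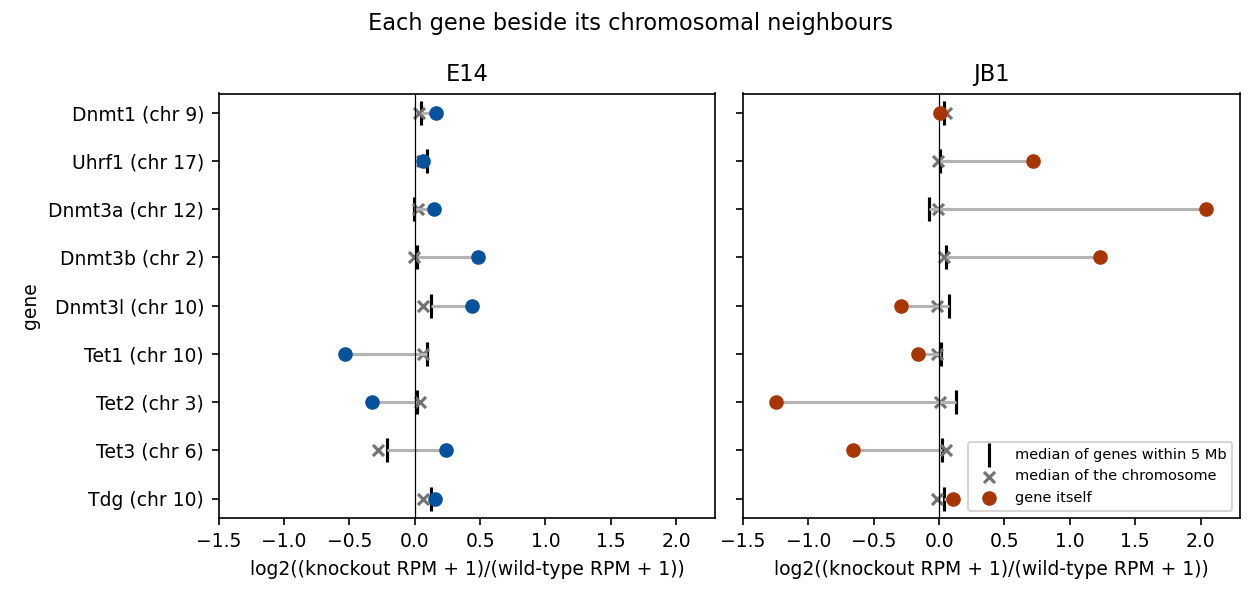
Difference of each gene (dots) beside the median of the measured genes within 5 Mb (bars) and of its chromosome (crosses), E14 left and JB1 right, on the log2(RPM + 1) scale. The medians stay near 0 except on chromosome 6 in E14, where Tet3 lies above its neighbours.

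Partner genes of the pathway had medians near those of all genes. On the log2(RPM + 1) scale, which counts of list members below use unless a ratio of RPM is named, of 65 measured genes on 6 pathway lists, the JB1 knockout had 2 at least 2-fold higher (2.5% of all genes) and none so much lower (1.58%). Of 64 in E14, none was 2-fold higher (0.953% of all genes) and 2 were 2-fold lower (0.269%). Their medians were 0.03 in JB1 and 0.00 in E14, and limma called none. The 2 higher in JB1 were Ahcy, which clears the by-product of methylation (from 113 to 250 RPM in JB1 and from 124 to 139 in E14), and Kdm2b, which binds unmethylated CpG islands (from 96.1 to 194 RPM in JB1 and from 45.4 to 43.5 in E14). The 2 lower in E14 were Neil2, a repair glycosylase (from 8.78 to 3.64 RPM in E14 and from 13.9 to 16.7 in JB1), and Prdm14.

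Of 12 regulators of de novo methylation, 11 were lower in the E14 knockout (median −0.15) and 8 in that of JB1 (median −0.07). Over all genes, 46.5% were lower in E14 and 48.5% in JB1. PRDM14 is known as a repressor of the de novo methyltransferase genes in embryonic stem cells. Prdm14 went from 16.9 to 7.94 RPM in E14 and from 63.5 to 41.0 RPM in JB1, lower in both knockout libraries. Whether it bears on Dnmt3a, Dnmt3b or Dnmt3l was not tested.

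Of 9 maintenance partners, 7 were higher in E14 (median 0.13) and 4 in JB1 (median −0.12), none by 1.5-fold. Dppa3, which keeps UHRF1 off chromatin, was the widest in JB1, from 19.7 to 14.8 RPM, and went from 1.31 to 1.85 RPM in E14. Of 8 methyl-CpG readers, 4 were lower in E14 (median −0.09) and 6 in JB1 (median −0.19), none by 1.5-fold on that scale. Over all genes, 3.81% were at least 1.5-fold higher and 2.27% lower in E14, and 9.91% and 6.52% in JB1. By the ratio of RPM, 1 reader was at least 1.5-fold lower in E14 and 2 in JB1. Counts by this ratio, here and below, have no share over all genes to stand beside. Among TET partners and cofactor enzymes, Idh1, which makes the TET co-substrate, went from 51.7 to 90.8 RPM in JB1 and from 41.9 to 50.9 in E14. Of the 9 measured in JB1, 2 were at least 1.5-fold higher (9.91% of all genes) and 1 lower (6.52%). None of 8 was so in E14 (3.81% and 2.27%). By the ratio of RPM, 3 were higher and 1 lower in JB1, and 1 was higher in E14. Base excision repair genes had medians of 0.06 in E14 and 0.09 in JB1 over 15 genes, and methyl donor genes 0.11 and 0.15 over 12.

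Pluripotency markers differed in the JB1 comparison too, not all in 1 direction. All 9 naive markers were lower in the JB1 knockout (median −0.43, summed level from 2439 to 1650 RPM), among them Klf4 (from 409.6 to 164 RPM) and Fgf4 (from 295 to 136 RPM). In E14, 5 of 9 were lower (median −0.12, sum from 1808 to 1567). The 10 general embryonic stem cell markers were divided in JB1, with 4 higher and 6 lower (sum from 4638 to 4158 RPM). In E14, 3 were higher and 7 lower (sum from 2686 to 2679 RPM). Utf1, a chromatin factor of pluripotent cells, went from 61.4 to 169.9 RPM in JB1 and from 7.92 to 7.75 RPM in E14. Nanog was lower in both knockout libraries, from 693 to 362 RPM in JB1 and from 228 to 137 RPM in E14. Sox2 went from 625 to 393 RPM in JB1 and from 181 to 154 RPM in E14. Of the primed markers, 5 of 8 were higher in JB1 (median 0.44, sum from 54.0 to 69.6) and 5 of 7 in E14 (0.16, sum from 33.5 to 38.8). Lef1, the widest of them in JB1, went from 6.66 to 13.6 RPM there and from 1.62 to 1.97 in E14. The 3 primed markers lower in JB1 were Cldn6 (from 14.9 to 10.5 RPM), Sall2 (from 5.77 to 4.70) and Otx2 (from 2.80 to 2.06). Primitive endoderm markers were higher in JB1 in 7 of 8 cases and in E14 in 1 of 6. Their JB1 sum went from 38.9 to 56.8 RPM, with Dab2 going from 20.2 to 29.6. The widest JB1 differences were those of Cubn, from 2.43 to 8.89 RPM, and Hnf4a, from 0.405 to 2.09. The 1 lower in JB1 was Gata4, from 6.10 to 2.97 RPM, and in E14 Gata4 went from 2.20 to 1.15 RPM. Of 4 measured trophoblast markers, 3 were higher in JB1 and 1 was lower, Gata3, from 4.23 to 3.17 RPM. Cdx2, Elf5 and Hand1 were below 1 RPM in every library. The trophoblast list went in sum from 22.3 to 35.2 RPM in JB1, mostly by the keratins Krt8 (from 5.79 to 13.96 RPM) and Krt18 (from 8.21 to 12.2 RPM). The part of these cell states in the results above was not tested.

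Germline genes listed as targets of silencing by promoter methylation went mostly in opposite directions in the lines. They were not all silent in these cells, and their levels summed to 330 RPM in wild-type E14 and 530 RPM in wild-type JB1. In E14, 15 of 17 were higher in the knockout (median 0.58) and in JB1, 15 of 17 were lower (median −0.55). On the log2(RPM + 1) scale, 0 were at least 2-fold higher in E14 (0.953% of all genes) and 4 at least 2-fold lower in JB1 (1.58%). By the ratio of RPM these counts were 4 and 4, with no share over all genes computed on that ratio. Taf7l, a testis transcription factor, went from 13.3 to 25.2 RPM in E14 and from 17.3 to 3.40 in JB1. Tdrd9, a piRNA pathway helicase, went from 1.62 to 2.82 RPM in E14 and from 15.97 to 2.70 in JB1. Sycp1, of the meiotic synaptonemal complex, went from 25.7 to 10.8 RPM in JB1, and Stk31 from 31.4 to 14.98. Beside them, Dnmt3a and Dnmt3b were higher in the knockout of both lines, and Dnmt3l and Tet3 were, like the germline median, opposite in the lines. No relation between these genes was tested.

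**Figure D4:**
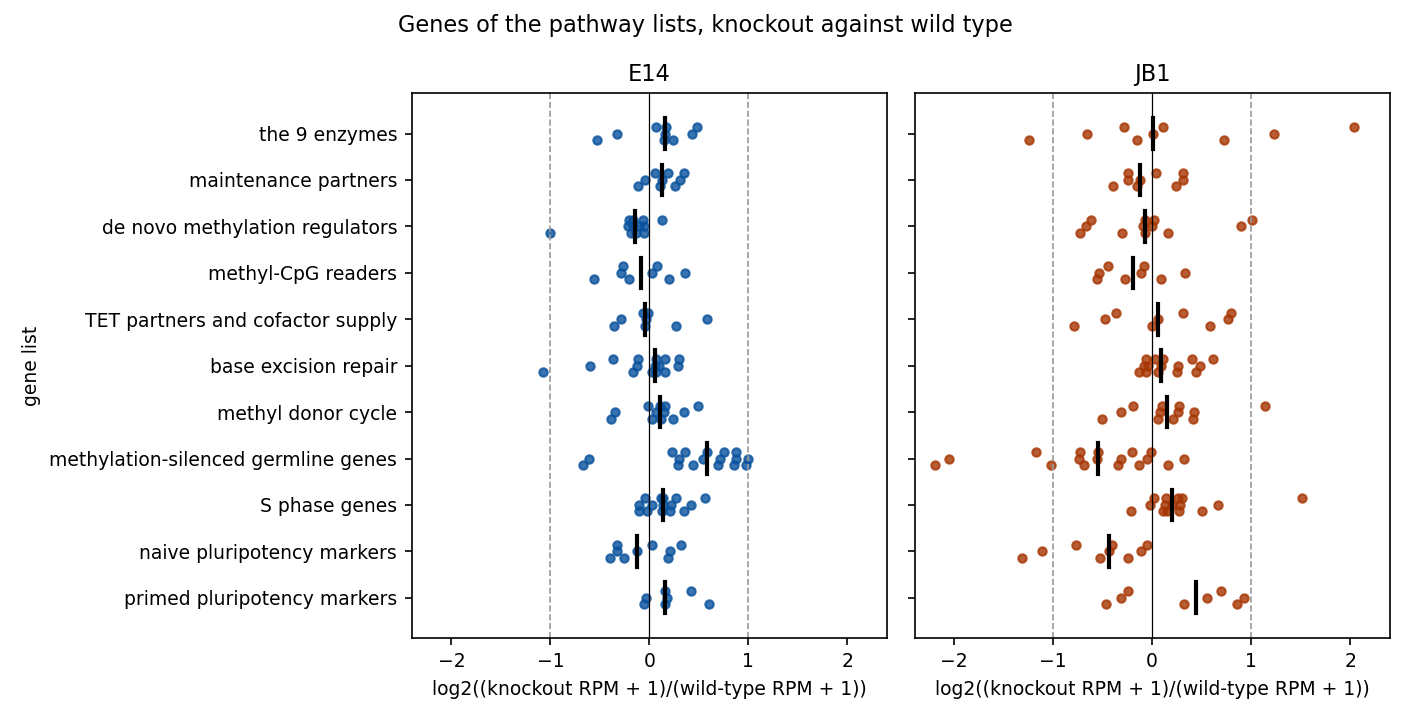
Difference of every measured gene of each list (dots) with the list median (bar), E14 left and JB1 right, on the log2(RPM + 1) scale with dashed lines at 2-fold. The germline medians are 0.58 in E14 and −0.55 in JB1. The medians of the 6 partner lists lie between −0.15 and 0.13 in E14 and between −0.19 and 0.15 in JB1.

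By the 2 within-line differences, the genes most like each of the 3 widest members were sought among 8652 others with a mean of 5 RPM or more in both tables (smallest Euclidean distance over 2 differences from 4 libraries). Nearest to Dnmt3a were Tpi1 (distance 0.21), Pipox (0.21) and Nefl (0.21), with JB1 differences of 1.83, 2.21 and 1.83. Nearest to Dnmt3b were Acot7 (0.03), Nptx2 (0.06) and Peg3 (0.09), with E14 differences of 0.50, 0.44 and 0.39 and JB1 differences of 1.21, 1.19 and 1.24. Nearest to Tet2 were Mdm4 (0.05), Ap1m2 (0.08) and Lrig3 (0.12), with JB1 differences of −1.25, −1.21 and −1.26. Dnmt3a had no neighbour as close as those of the other pair.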

How the data were processed

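RNA from 4 libraries was sequenced, 1 for each line (E14, JB1) and genotype (wild type, Zfp57-/-), grouped by sample title, with a stranded TruSeq mRNA kit per the labels' protocols. Build mm9, TopHat2 2.0.8b, CASAVA 1.8.2 and cutadapt are named, per the submitters' processing notes. Annotation, counting tool, strand setting and scaling total were not given in the sources used here. Deposited values are log2 RPM per gene, and genes without reads carry 0.9 of 1 read. Whole reads were recovered for 100% of the other values (relative tolerance 1e-04).

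RPM were 2 to the power of the value. Differences are log2((knockout RPM + 1)/(wild-type RPM + 1)), which understates changes of low genes. A line's measured genes have 1 RPM or more in either library. Intervals are 95% exact conditional binomial (scipy 1.17.1). The shared difference was fitted with limma 3.58.1 in R 4.3.3 (eBayes with trend, genes at a mean of 1 RPM or more). The fit was run on simulated counts with large changes planted alike in both lines. That setting does not cover genes whose difference varies between the lines, as that of Dnmt3a did. Gene coordinates are those of the tables (mm9), and sequences are from RefSeq (GRCm38.p6), matched by symbol for all 9 genes.

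Members and lists were chosen with earlier results of these data known. Besides the 9 members, text names the genes of each list at least 2-fold different in either line (up to 4, or else the widest), and the 3 nearest in pattern. Some marker genes are named outside this rule, to show what the sum of their list holds or which of its genes went the other way. Listed genes absent by symbol were not analysed here. One gene that this rule names is not reported here.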

Additional observations from a re-analysis of the deposited data

Results flagged for a closer look

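Dnmt3l and Tet3 went opposite ways in the lines, each with a counting interval that leaves out 1 in both. For Dnmt3l, log2(knockout/wild type) in JB1 minus that in E14 was −0.72 (211 and 286 RPM in E14, 342 and 280 RPM in JB1). For Tet3 the value was −0.95 (9.53 and 11.5 RPM in E14, 26.4 and 16.4 RPM in JB1). The difference between the lines was not tested, since each group is 1 library.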

How the results depend on the processing

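Alternatives were a pseudocount of 0.1 or 5, no filter or one of 5 RPM, scaling to the reads in listed genes with or without histone genes, and centring on the median. The members at least 2-fold different stayed 0 in E14 and 3 in JB1 under each of these, the 3 being Dnmt3a, Dnmt3b and Tet2. At 1.5-fold the counts were 0 in E14 and 5 in JB1, except that 4 passed in JB1 with a pseudocount of 5, which left out Tet3. Of 90 recomputed member differences, 3 changed sign, all of Dnmt1 in JB1 and all within its counting interval (0.0058 against −0.0014 with either scaling to listed genes and −0.0090 when centred). Another 3 moved by more than the half-width of their counting interval, all in JB1 with a pseudocount of 5 (largest shift 0.187). In limma no member and no gene was called under any of 7 alternatives, and the lowest adjusted p of a member ranged from 0.563 to 0.815. Without a filter in limma, no member had an unadjusted p under 0.05.

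Counts over all genes depended more on the pseudocount. The numbers at least 2-fold higher and lower were 117 and 33 in E14 and 328 and 208 in JB1. They became 268 and 77, and 656 and 360, with a pseudocount of 0.1, and 44 and 6, and 111 and 83, with 5. At 1.5-fold they were 468 and 279 in E14 and 1301 and 856 in JB1. They became 785 and 441 in E14 with 0.1, 162 and 128 in E14 and 556 and 416 in JB1 with 5, and 290 and 227 in E14 with a filter of 5 RPM (878 and 661 in JB1). Scaling to listed genes gave 168 and 54 at 2-fold in E14, and 171 and 51 without histone genes. The limma model paired the libraries by line, and the labels carry no replicate numbers for another pairing. List counts by the ratio of RPM were added after seeing the data.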
